A study of Mus musculus with 16 samples.

Results

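Igf2bp1, Igf2bp2, Igf2bp3, Mdk, Ptn, Gpc3, Sox4, Stmn1, Marcksl1 and Nes are 10 genes that are abundant in growing fetal tissue and mostly decline after birth. They were chosen by name from the 22468 genes of a count table, with earlier results of the same data known. No record says which comparison drew attention to them, so the values below describe these genes and are not independent support for any pattern. All 10 genes were found in the table and all 10 passed the filter on low counts, as 13412 of the 22468 genes did.

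The RNA came from whole ventricles, with tissue from both sides of the ligature, of neonatal mice, whose heart muscle can still regrow for a short time after birth. The study compared 4 groups of 4 samples: Chrna7 knockout (KO) mice after myocardial infarction (KO MI), KO mice after sham surgery (KO sham), wild-type mice after infarction (WT MI) and wild-type mice after sham surgery (WT sham). Chrna7 encodes the alpha 7 nicotinic acetylcholine receptor, and the KO is a germline strain of the Jackson Laboratory, so every cell carries the knockout allele. The labels give neither the age, litter, sex or day of harvest, nor whether each sample is 1 animal, so the p-values measure only the spread between these samples. Chrna7 itself had 0 to 4 counts per library in KO samples and 0 to 2 in WT samples, which is too few to check the genotype labels.

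The 3 Igf2bp proteins bind messenger RNAs, among them those of Igf2 and beta-actin, and steer where and how long these are used. Igf2bp1 and Igf2bp3 are known as oncofetal proteins, silenced in most adult tissues, whereas Igf2bp2 persists. Midkine (Mdk) and pleiotrophin (Ptn) are heparin-binding growth factors, glypican 3 (Gpc3) is a heparan sulphate proteoglycan on the cell surface that restrains growth, and Sox4 is a transcription factor of progenitor cells. Stathmin 1 (Stmn1) takes apart microtubules, Marcksl1 binds actin and calmodulin at the membrane, and nestin (Nes) is an intermediate filament of immature cells.

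The let-7 microRNAs accumulate as tissues mature and are known repressors of the Igf2bp family. Their sequence is shown because its seed pairs with sites in several of the 10 messengers. Mouse let-7a-5p is encoded at chr13:48538239-48538260 on the minus strand (RefSeq, build GRCm38.p6), and the capitals mark the seed, bases 2 to 8.
mmu-let-7a-5p: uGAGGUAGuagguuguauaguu
All 11 let-7 and miR-98 5p arms listed by RefSeq carried the same seed. Its reverse complement, CTACCTC, was searched on the sense strand of the annotated 3′ UTR of 1 transcript per gene (GENCODE annotation on build GRCm38). Igf2bp1 held 4 matches in a 3′ UTR of 6337 bases, and Igf2bp2 (1784 bases), Igf2bp3 (2119 bases) and Marcksl1 (753 bases) held 1 match each. Thus 4 of the 10 genes held a match, against 10.2% of the tested genes with an annotated 3′ UTR (1356 of 13265). The median 3′ UTR was 1269 bases long in the 10 genes and 1134 bases in the tested genes, and a longer 3′ UTR has more room for a match. The first 2 Igf2bp1 sites (chr11:95961768-95961797 and chr11:95959347-95959376, minus strand) and the sites of Igf2bp2 (chr16:22059463-22059492, minus strand), Igf2bp3 (chr6:49086777-49086806, minus strand) and Marcksl1 (chr4:129515473-129515502, plus strand) each lie within 1 exon and are given with the match in capitals.
Igf2bp1 site 1: gtgcgaagtaaaCTACCTCaaggtgtgaag
Igf2bp1 site 2: cagtgctattaaCTACCTCagccccagagg
Igf2bp2 site: cacaaataaaagCTACCTCaggtgtttttt
Igf2bp3 site: atttttactcaaCTACCTCaggtattcagt
Marcksl1 site: gatgccctgtccCTACCTCtttcccgagcc
A match describes the sequence and is no evidence of binding. Small RNAs were not measured here.

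The libraries held 10711442 to 17223580 counts in genes, so that 3 counts corresponded to 0.174 to 0.280 CPM. CPM, edgeR's standard unit of level, relates a gene's counts to the library total, which was scaled by the TMM method. On the first principal component of all tested genes, which held 25.5% of the variance, the 4 KO sham libraries scored 27.9 to 31.6 and the other 12 libraries -28.9 to 0.97. Without the 10 genes it held 25.4%. KO sham thus stood apart as a group, and every comparison that contains it shares these 4 libraries.

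Compared per kilobase of merged exons, the 10 genes covered a wide range of levels. Stmn1 was the most abundant, with a mean over the 16 samples of 100.2 CPM per kb. Mdk (50.1 CPM per kb), Marcksl1 (36.8), Nes (34.2), Ptn (33.8), Gpc3 (25.7) and Sox4 (19.4) followed. The 3 Igf2bp genes were far lower, at 1.81 CPM per kb for Igf2bp2, 0.9998 for Igf2bp3 and 0.0743 for Igf2bp1. Stmn1 lay above 96.7% of the tested genes on this scale, and Igf2bp1 above 0.343% of them.

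Igf2bp1 was near the limit of detection, and lowest in KO sham hearts. It had 10, 15, 10 and 13 counts in the KO MI libraries, 0, 2, 5 and 6 in KO sham, 6, 10, 10 and 14 in WT MI and 8, 16, 10 and 12 in WT sham. The library with 0 counts allows a level of up to 0.194 CPM, for counting error only. Its level averaged 0.824 ± 0.188 CPM in KO MI, 0.250 ± 0.217 in KO sham, 0.801 ± 0.321 in WT MI and 1.003 ± 0.251 in WT sham (mean ± SD, n = 4 each). All 4 KO sham libraries lay below every other library in CPM, with 0.481 CPM in KO sham replicate 4 close to 0.493 CPM in WT MI replicate 1, while the other 3 groups overlapped one another. The fitted log2 fold change was 1.74 ± 0.52 (± SE) in KO MI against KO sham (adjusted p = 0.0268) and -2.03 ± 0.52 in KO sham against WT sham (adjusted p = 0.0126), by edgeR's quasi-likelihood test with Benjamini-Hochberg adjustment over all tested genes. A gene is called below when this adjusted p is under 0.05. The first call was lost when KO MI replicate 2 (log2 fold change 1.60), KO sham replicate 1 (1.29) or KO sham replicate 2 (1.57) was left out. Igf2bp1 passed the filter on low counts only through the groups other than KO sham. With the samples of either of these comparisons fitted alone it failed the filter and had no test. The p-values above are thus no independent support for its low level in KO sham.

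Igf2bp3 followed the same order of groups at a higher level. It stood at 8.63, 12.1, 6.62 and 9.18 CPM in KO MI, 5.07, 5.88, 6.05 and 6.41 in KO sham, 8.39, 8.47, 6.95 and 6.86 in WT MI and 10.2, 9.35, 12.8 and 7.54 in WT sham. The KO sham libraries lay below every library of the other 3 groups. Igf2bp3 was higher in KO MI than in KO sham (log2 fold change 0.64 ± 0.18, adjusted p = 0.0183) and lower in KO sham than in WT sham (-0.77 ± 0.18, adjusted p = 0.00702). Without KO MI replicate 2 (0.48) or KO sham replicate 1 (0.58) the first of these was no longer called.

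Igf2bp2, the member of the family that adult tissues keep, did not share this pattern. Its level ranged from 11.8 to 21.6 CPM in KO MI, 11.6 to 12.7 in KO sham, 11.6 to 16.5 in WT MI and 10.5 to 15.1 in WT sham, and all groups overlapped. No comparison called it: the log2 fold change was 0.35 ± 0.16 (adjusted p = 0.155) in KO MI against KO sham and -0.09 ± 0.17 (adjusted p = 0.765) in KO sham against WT sham. The highest value, 21.6 CPM, belonged to KO MI replicate 2, and the first of these differences was 0.13 without it.

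**Figure D1:**
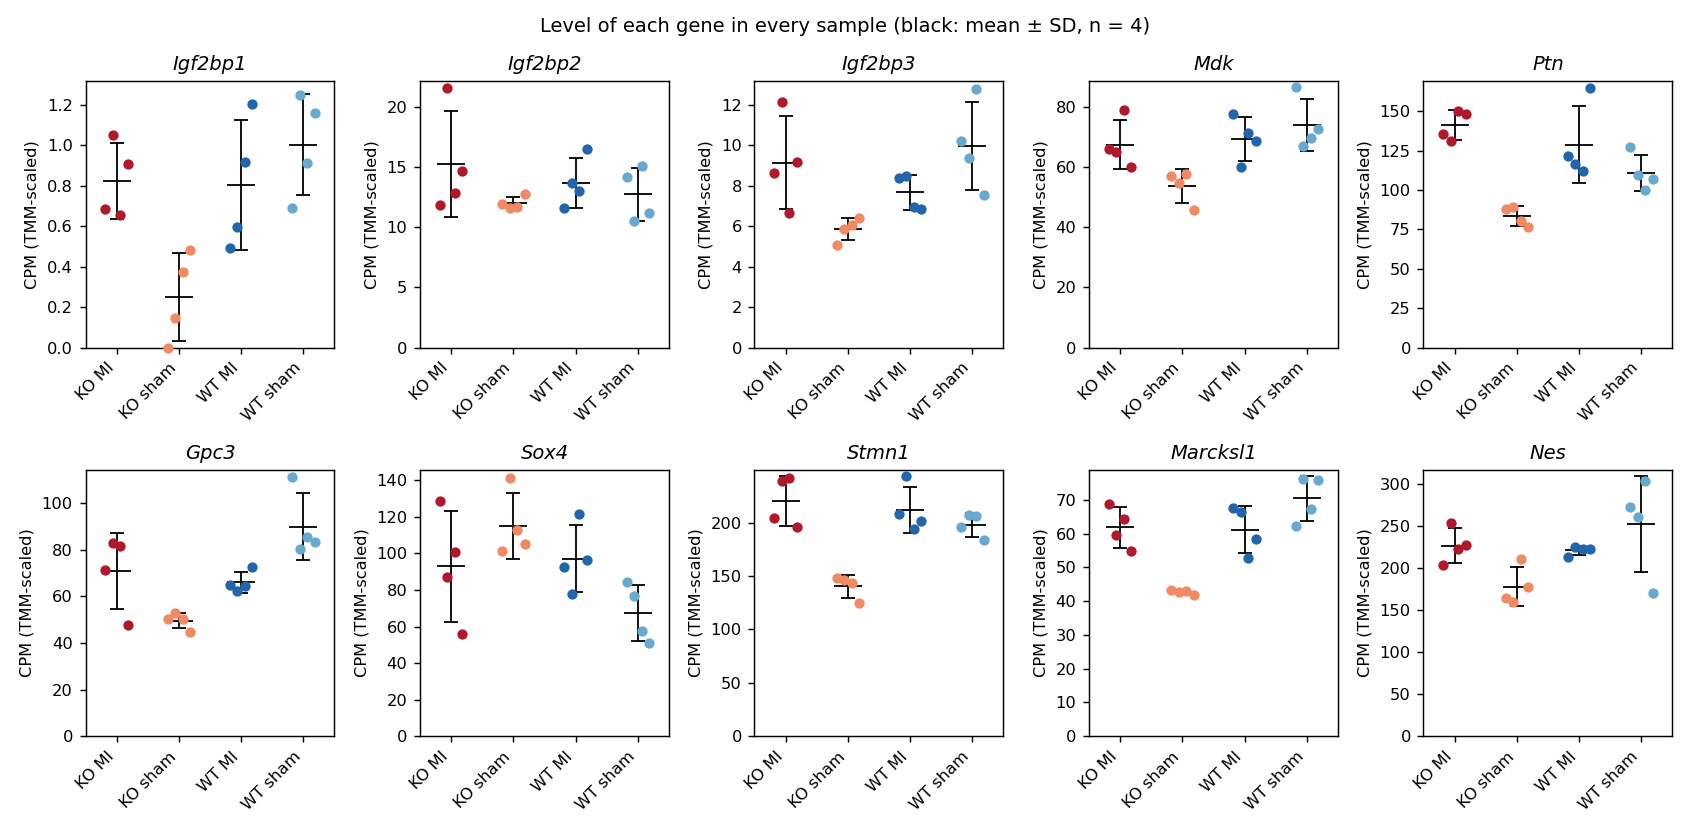
Level of each of the 10 genes in CPM (TMM-scaled library totals, vertical axis from 0) in each of the 16 samples, by group; black bars give the mean ± SD of 4 samples. KO sham was the lowest group on average for 9 of the 10 genes, and for Sox4 it was the highest. How often KO sham was the lowest or highest group over all tested genes was not counted.

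Both growth factors were lowest in KO sham hearts. Mdk stood at 66.0, 65.0, 79.3 and 60.04 CPM in KO MI, 57.0, 54.8, 58.0 and 45.7 in KO sham, 77.8, 60.1, 71.4 and 69.0 in WT MI and 86.8, 67.1, 69.8 and 72.9 in WT sham. Ptn stood at 135, 131, 150 and 148 CPM in KO MI, 88.1, 89.5, 80.5 and 76.2 in KO sham, 122, 117, 112 and 165 in WT MI and 127, 110, 99.9 and 107 in WT sham. For both genes every KO sham library lay below every library of the other groups. The log2 fold change of Mdk was 0.33 ± 0.11 (adjusted p = 0.0416) in KO MI against KO sham and -0.46 ± 0.11 (adjusted p = 0.00733) in KO sham against WT sham. Ptn rose by a log2 fold change of 0.76 ± 0.11 (adjusted p = 0.000294) in KO MI against KO sham, to a mean above that of WT sham, and was lower in KO sham than in WT sham by a log2 fold change of -0.41 ± 0.11 (adjusted p = 0.0163). The Mdk call in KO MI against KO sham was the least stable of the 10 genes: it was lost in 9 of 16 fits that each left out 1 library (0.24 to 0.36), and correcting for transcript length and GC content brought the value to 0.073. That correction also ended the Mdk call in KO sham against WT sham (-0.25). The Ptn call in KO sham against WT sham was lost without KO sham replicate 3 or 4 or WT sham replicate 1 (-0.33 to -0.39).

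Among 16 listed receptors and binding partners of midkine and pleiotrophin, 14 were tested. In KO sham against WT sham 1 was higher and 1 lower: Sdc3, a syndecan, with a log2 fold change of 0.47 ± 0.12, and Cspg5, a chondroitin sulphate proteoglycan, with -1.65 ± 0.50. Sdc4 was higher (0.55 ± 0.16) and Notch2 lower (-0.61 ± 0.19) in KO MI against KO sham. None was called in WT MI against WT sham or in KO MI against WT MI. Of all tested genes, 7.6% were called higher and 7.74% lower in KO sham against WT sham. In KO MI against KO sham these shares were 8.54% and 8.02%, so single calls among 14 genes lie near them. The median log2 fold change of the 14 genes was 0.13 in KO sham against WT sham (9 positive, 5 negative). It was -0.08 in KO MI against KO sham (6 positive, 8 negative).

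Gpc3 was lower in KO sham than in WT sham hearts by the largest amount after Igf2bp1. It stood at 71.3, 83.1, 81.8 and 47.9 CPM in KO MI, 50.2, 52.8, 50.3 and 44.9 in KO sham, 64.9, 62.2, 64.3 and 72.5 in WT MI and 111, 80.2, 85.4 and 83.3 in WT sham. KO MI replicate 4 fell within the KO sham range, and the other KO MI libraries lay above it. The log2 fold change was -0.86 ± 0.14 (adjusted p = 0.000414) in KO sham against WT sham and 0.52 ± 0.14 (adjusted p = 0.0147) in KO MI against KO sham. All 4 WT MI libraries also lay below all 4 WT sham libraries, with a log2 fold change of -0.45 ± 0.14 that was not called (adjusted p = 0.0946); it was called without KO MI replicate 4 (-0.45) and by limma voom (-0.41). The rise in KO MI was not called without KO MI replicate 2 (0.43), KO MI replicate 3 (0.44) or KO sham replicate 4 (0.47), or after the correction for length and GC content (0.40).

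Of 13 tested genes for other glypicans and the enzymes that build or trim heparan sulphate, Gpc6 was higher in KO sham than in WT sham (0.54 ± 0.15) and Sulf1, which removes sulphate groups, was lower (-0.29 ± 0.09). Gpc6 (-0.58 ± 0.15) and Ndst1, a sulphotransferase (-0.51 ± 0.13), were lower in KO MI than in KO sham. The median log2 fold change of the 13 genes was -0.06 in KO sham against WT sham and -0.01 in KO MI against KO sham, and none was called in WT MI against WT sham. Of all tested genes, 7.6% were called higher and 7.74% lower in KO sham against WT sham, and 8.02% lower in KO MI against KO sham. The few calls among these 13 genes cannot be set apart from those shares.

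Sox4 ran the other way from the rest. It stood at 129, 87.2, 101 and 55.7 CPM in KO MI, 101, 141, 113 and 105 in KO sham, 92.8, 77.7, 122 and 96.4 in WT MI and 84.2, 76.5, 57.8 and 51.0 in WT sham. All KO sham libraries lay above all WT sham libraries, and the KO MI libraries spread across the ranges of all 3 other groups. Sox4 was higher in KO sham than in WT sham (log2 fold change 0.77 ± 0.22, adjusted p = 0.0246). Neither infarction comparison called it: the value was -0.31 ± 0.21 (adjusted p = 0.341) in KO MI against KO sham and 0.52 ± 0.22 (adjusted p = 0.26) in WT MI against WT sham. The call was lost without KO sham replicate 2 (0.66), WT sham replicate 3 (0.71) or WT sham replicate 4 (0.66). Of 4 tested relatives and targets of Sox4, Tead2, a partner of the growth regulator YAP, was the only one called: its log2 fold change was -0.40 ± 0.08 in KO sham against WT sham and 0.34 ± 0.08 in KO MI against KO sham, so that it was low in the group where Sox4 was high.

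Of the 3 cytoskeletal proteins, Stmn1 and Marcksl1 were called lower in KO sham than in WT sham and higher in KO MI than in KO sham. Stmn1 stood at 205, 238, 242 and 196 CPM in KO MI, 148, 147, 143 and 124 in KO sham, 208, 243, 194 and 201 in WT MI and 196, 207, 206 and 183 in WT sham. Marcksl1 stood at 68.7, 59.5, 64.4 and 54.7 CPM in KO MI, 43.3, 42.7, 43.0 and 41.9 in KO sham, 67.4, 66.3, 52.6 and 58.2 in WT MI and 62.3, 76.0, 67.4 and 75.8 in WT sham. No KO sham library reached the range of any other group for either gene, and the other 3 groups overlapped one another. Stmn1 rose by a log2 fold change of 0.65 ± 0.09 (adjusted p = 0.000251) in KO MI against KO sham and was lower in KO sham than in WT sham by -0.50 ± 0.09 (adjusted p = 0.0015). For Marcksl1 the values were 0.53 ± 0.09 (adjusted p = 0.00126) and -0.72 ± 0.09 (adjusted p = 6.38e-05). These 4 calls held in all 16 fits that left out 1 library.

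Nestin stood at 203, 253, 222 and 227 CPM in KO MI, 164, 160, 210 and 177 in KO sham, 213, 225, 223 and 222 in WT MI and 272, 261, 304 and 171 in WT sham. WT sham replicate 4 (171 CPM) lay inside the KO sham range, so these 2 groups overlapped. Its log2 fold change was -0.50 ± 0.13 (adjusted p = 0.0136) in KO sham against WT sham, which was lost without WT sham replicate 3 (-0.40) and with the 8 samples of these groups fitted alone (-0.50). In KO MI against KO sham it was 0.35 ± 0.13 (adjusted p = 0.0693) and not called by edgeR. That difference was called by limma voom (0.34), with the 8 samples fitted alone (0.35), without KO sham replicate 3 (0.43) and without WT sham replicate 4 (0.35).

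**Figure D2:**
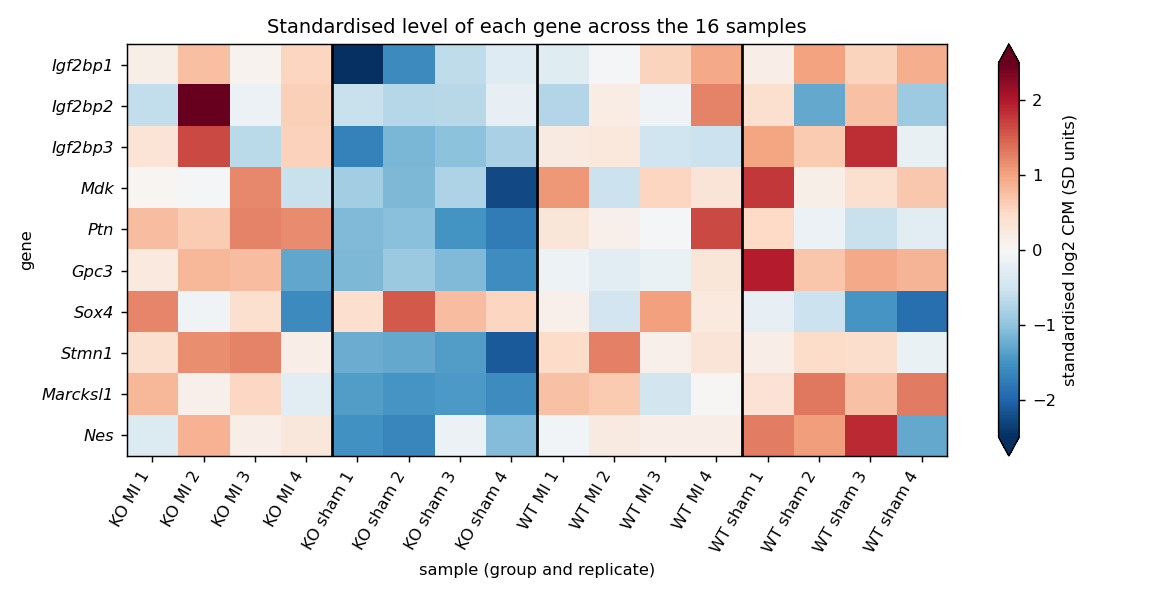
Standardised log2 CPM of each gene (rows) in the 16 samples (columns, grouped), in SD units around the gene's mean over all samples; red is high and blue is low. The 4 KO sham columns are blue for most genes, pale for Igf2bp2 and red for Sox4.

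Microtubule genes listed beside Stmn1 included its substrate, tubulin. In KO sham against WT sham 6 of 16 tested were lower and 1 higher, with a median log2 fold change of -0.34 against -0.01 over all tested genes. Of all tested genes 7.74% were called lower and 7.6% higher. Tuba1a averaged 139 ± 17.7 CPM in KO sham and 224 ± 21.5 in WT sham (log2 fold change -0.69 ± 0.10), and Tubb2b averaged 33.9 ± 2.56 CPM in KO sham and 67.5 ± 9.33 in WT sham (-0.99 ± 0.16). Tubb2a (-0.63 ± 0.14) and Tuba1c (-0.68 ± 0.16) were lower as well. In KO MI against KO sham, where 8.54% of all tested genes were called higher and 8.02% lower, 6 of the 16 were higher and none lower, with a median of 0.39. Among them were Tuba1a (0.62 ± 0.10) and Tubb2b (0.93 ± 0.16). The alpha-tubulin genes Tuba1a, Tuba1b and Tuba1c are near-identical in their coding sequence, so reads may be split between them uncertainly. Among 5 tested partners of Marcksl1 and nestin, the paralogue Marcks went the opposite way, higher in KO sham than in WT sham (0.64 ± 0.16), while Vim, the filament partner of nestin, was lower (-0.34 ± 0.09).

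The calls fell in the comparisons that contain KO sham. In KO sham against WT sham, 8 of the 10 genes were called lower and 1 higher, where 7.74% of all tested genes were called lower and 7.6% higher. In KO MI against KO sham, 7 of 10 were called higher and none lower, against 8.54% and 8.02% of all tested genes. In WT MI against WT sham none of the 10 was called in either direction by edgeR, against 1.32% of all tested genes called higher and 0.932% called lower. There, 4 of the 10 had an unadjusted p under 0.05, DESeq2 called none and limma voom called Gpc3. In KO MI against WT MI none was called, where 0.00746% of tested genes were called higher and 0.00746% lower (1 gene each). In that comparison none of the 10 had an unadjusted p under 0.05, and neither DESeq2 nor limma voom called any. The median log2 fold change of the 10 genes was -0.50 in KO sham against WT sham, 0.53 in KO MI against KO sham, -0.14 in WT MI against WT sham and 0.06 in KO MI against WT MI, while that of all tested genes lay between -0.01 and 0.01. Because the first 2 comparisons share the KO sham libraries, a level that is low in these libraries moves both, in opposite directions. Leaving out the 3 libraries with almost no Y-linked reads (KO MI replicate 1, KO sham replicate 2 and WT sham replicate 1) left 4 of the 10 genes called in KO MI against KO sham. The calls lost there were Igf2bp1 (log2 fold change 1.65, against 1.74 with all libraries), Igf2bp3 (0.67, against 0.64) and Mdk (0.35, against 0.33). It left 6 called in KO sham against WT sham, without Mdk (-0.38, against -0.46), Ptn (-0.37, against -0.41) and Nes (-0.42, against -0.50).

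None of the 10 genes was called between the genotypes after infarction. The fitted differences between KO MI and WT MI ranged from -0.06 for Sox4 to 0.25 for Igf2bp3. The 95% interval of the log2 fold change was -0.13 to 0.25 for Stmn1, -0.18 to 0.21 for Marcksl1 and -0.26 to 0.18 for Mdk. It was wider for Igf2bp3, at -0.12 to 0.61, and for Sox4, at -0.51 to 0.39. For Igf2bp1, which had the fewest counts, it ran from -0.82 to 0.95.

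The response to infarction differed between genotypes for 4 genes. This was tested as an interaction, the log2 fold change of infarction against sham in KO minus that in WT. It was called positive for Igf2bp3 (1.02 ± 0.25, adjusted p = 0.0308), Gpc3 (0.97 ± 0.19, adjusted p = 0.00997), Stmn1 (0.55 ± 0.13, adjusted p = 0.0261) and Marcksl1 (0.73 ± 0.13, adjusted p = 0.0054). Of all tested genes 1.65% had a positive interaction called and 1.1% a negative one. Gpc3, for example, was higher in KO MI than in KO sham by 0.52 and lower in WT MI than in WT sham by -0.45. The interaction also contains the KO sham libraries, and it equals the genotype difference after infarction minus that after sham. For Igf2bp3, Gpc3, Stmn1 and Marcksl1 the difference after infarction was 0.25, 0.11, 0.06 and 0.01. After sham it was -0.77, -0.86, -0.50 and -0.72, so these 4 calls are not separate from those in KO sham against WT sham. The interaction of Ptn was 0.54 ± 0.15 (adjusted p = 0.0631), of Igf2bp1 2.09 ± 0.67 (0.102), of Nes 0.54 ± 0.18 (0.119), of Mdk 0.42 ± 0.15 (0.14) and of Sox4 -0.83 ± 0.30 (0.156), none of them called by edgeR. Limma voom called those of Igf2bp1 (2.51), Mdk (0.42), Ptn (0.48) and Nes (0.59), DESeq2 that of Ptn (0.53), and edgeR with an index of Y-linked reads as a covariate that of Sox4 (-1.0004). Ptn was also called without WT MI replicate 4 (0.68), and Nes without WT sham replicate 4 (0.69). The Gpc3 and Marcksl1 interactions were called in all 16 fits that left out 1 library, whereas that of Igf2bp3 was lost in 8 (0.86 to 1.06) and that of Stmn1 in 6 (0.50 to 0.54). The Stmn1 interaction was also lost after the correction for length and GC content (0.38).

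**Figure D3:**
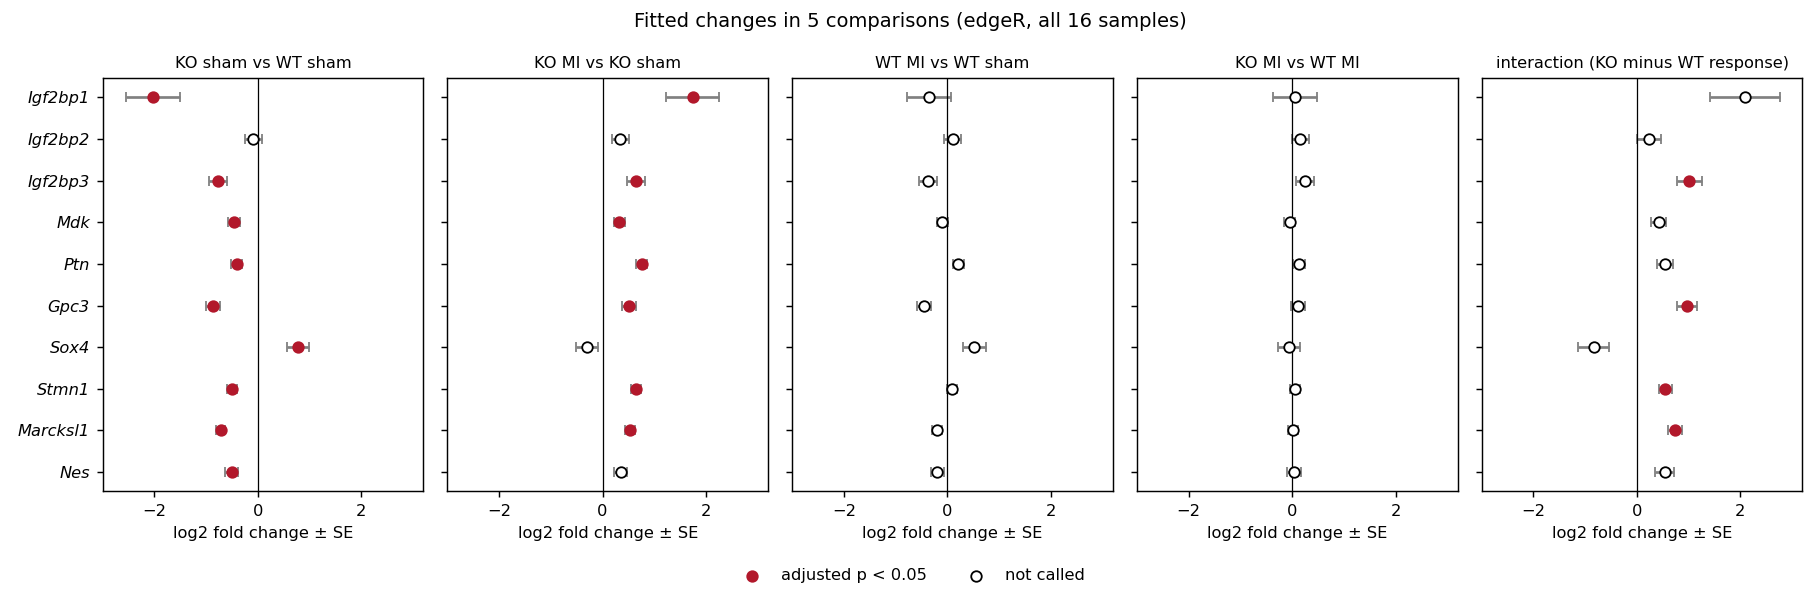
Fitted log2 fold change ± SE of each gene in the 5 comparisons (horizontal axis), from 1 edgeR model of all 16 samples; filled red points have an adjusted p under 0.05. Calls occur in KO sham against WT sham, KO MI against KO sham and the interaction, and none in WT MI against WT sham or KO MI against WT MI.

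Few genes on the lists related to the Igf2bp proteins were called in the comparisons that contain KO sham. Of 8 tested genes of the let-7 and Lin28 axis, Mycn, a growth-promoting transcription factor, was the only one called in KO sham against WT sham, at 10.3 ± 1.49 CPM in KO sham and 18.99 ± 1.73 in WT sham (log2 fold change -0.88 ± 0.16). It was higher in KO MI than in KO sham (0.70 ± 0.16). Of 6 tested messengers known to be bound by Igf2bp proteins, Actb, the beta-actin gene, was lower in KO sham than in WT sham (-0.80 ± 0.11) and higher in KO MI than in KO sham (0.76 ± 0.11), with an interaction of 0.80 ± 0.15 (adjusted p = 0.00658). Igf2, the messenger that gave the family its name, averaged 155 ± 9.53 CPM in KO sham and 174 ± 15.6 in WT sham, a difference that was not called (-0.17 ± 0.13, adjusted p = 0.409). It was lower in WT MI, at 113 ± 24.2 CPM, than in WT sham (-0.63 ± 0.13, adjusted p = 0.0164). Igf2bp proteins also read N6-methyladenosine on RNA. Of 20 tested writers, erasers and other readers of this mark, Hnrnpc was the 1 called in KO sham against WT sham (-0.30 ± 0.07), and in KO MI against KO sham Hnrnpc (0.33 ± 0.07) and the methyltransferase Mettl3 (0.42 ± 0.13) were higher and the demethylase Fto lower (-0.27 ± 0.08). Over all tested genes, 7.74% were called lower in KO sham than in WT sham and 8.54% higher in KO MI than in KO sham. Single calls in lists of 8, 6 and 20 genes are too few to set apart from these shares. In KO sham against WT sham the median log2 fold change was 0.12 in the let-7 and Lin28 list. It was -0.04 in the bound messengers and 0.05 in the writers, erasers and other readers.

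Some other fetal genes were low in KO sham as well. Of all tested genes 7.74% were called lower and 7.6% higher in KO sham against WT sham. In KO MI against KO sham 8.54% were called higher and 8.02% lower, and in WT MI against WT sham 0.932% were called lower. Of 12 tested genes of the fetal growth programme, 5 were lower in KO sham than in WT sham and none higher, among them Mest, an imprinted gene (-0.73 ± 0.11), Mycn, Tead2 and the imprinted transcription factor Plagl1 (-0.51 ± 0.12). KO MI against KO sham showed 5 higher and none lower, with Mest at 0.79 ± 0.11 and the cell cycle regulator E2f1 at 0.47 ± 0.10. In WT MI against WT sham 4 were lower, where none of the 10 genes was called: Dlk1 (-1.21 ± 0.17), Plagl1 (-0.73 ± 0.12), Igf2 and Tead2 (-0.30 ± 0.08). Mycn, Tead2 and Igf2 also belong to lists described above, so their calls are counted there too. Of 8 fetal cardiomyocyte genes 7 were lower in KO sham than in WT sham, with a median log2 fold change of -1.42, among them the slow skeletal troponin Tnni1 (412 ± 39.2 CPM in KO sham and 1081 ± 150 in WT sham) and skeletal actin Acta1 (-1.44 ± 0.20). Of these 8, 3 were higher in KO MI than in KO sham: Tnni1 (0.84 ± 0.12), Acta1 (1.33 ± 0.20) and Nppa (2.505 ± 0.61). The list overlaps the atrial markers described next, since Myl7 and Myl4 belong to both, and Nppa is also known as an atrial gene. Of 13 genes of the maturing cardiomyocyte, Ckm was lower in KO sham than in WT sham (-0.31 ± 0.10) and none was higher. A single call among 13 genes lies near the share of all tested genes. Of the same 13, 3 were lower and none higher in KO MI than in KO sham: the calcium pump Atp2a2 (-0.68 ± 0.11), the calcium release channel Ryr2 (-0.52 ± 0.14) and phospholamban, Pln (-0.48 ± 0.14). Of 15 cell cycle genes 4 were lower in KO sham than in WT sham (Birc5, Top2a, Mcm3 and Ccna2, from -0.59 to -0.43), and 9 were higher in KO MI than in KO sham, with a median of 0.45.

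**Figure D4:**
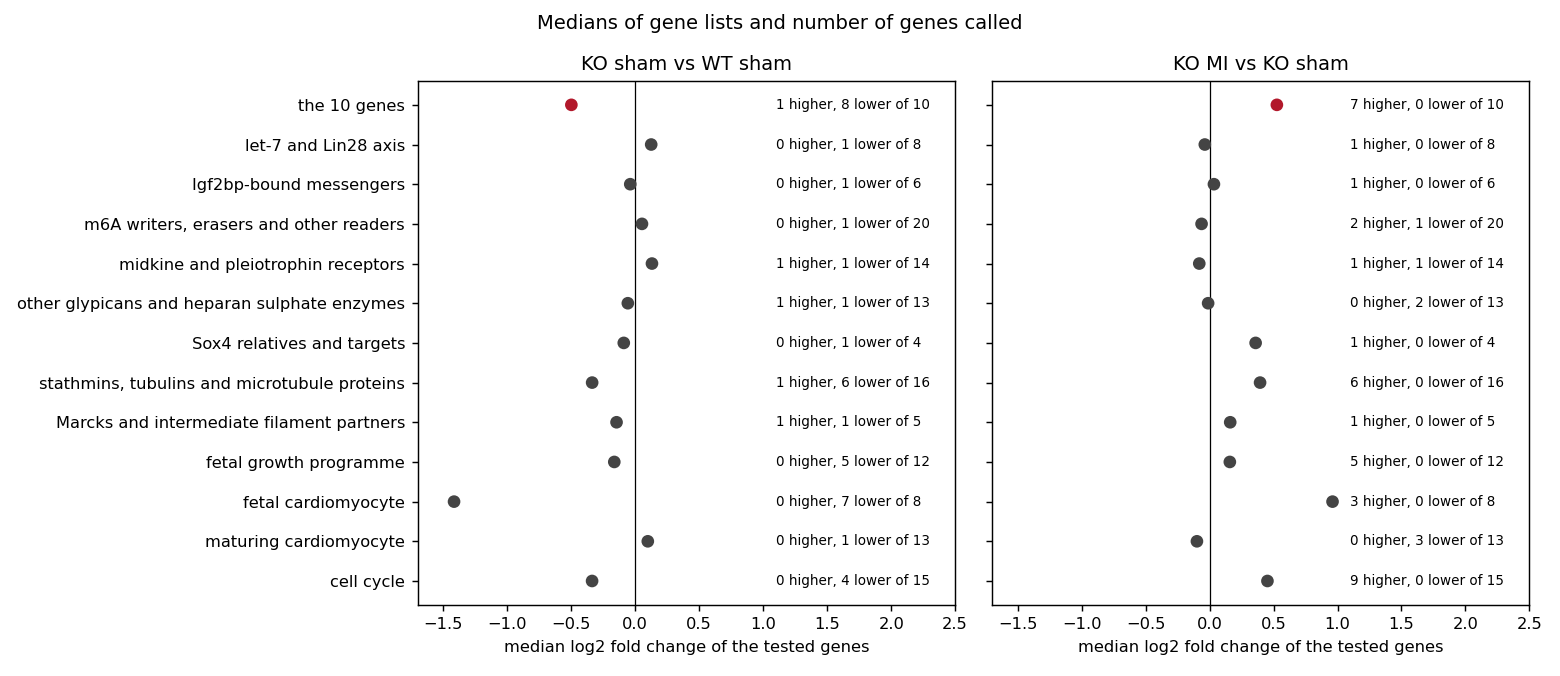
Median log2 fold change of the tested genes of each list (points) in KO sham against WT sham and in KO MI against KO sham, with the number of genes called higher and lower at the right. The 10 genes (red) had medians of -0.50 and 0.53, and the tubulin, cell cycle and fetal cardiomyocyte lists also lay below 0 on the left and above 0 on the right.

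Markers of several other cell types differed between the same groups, and few or none of those of others were called. Ventricular tissue carries epicardium, and 10 of 11 epicardial and mesothelial markers were lower in KO sham than in WT sham (median log2 fold change -1.29), led by Upk3b (-4.03 ± 0.60) and Msln (-3.47 ± 0.55), and 9 were higher in KO MI than in KO sham. Their summed level was 115 to 201 CPM in KO MI, 89.0 to 102 in KO sham, 136 to 154 in WT MI and 184 to 228 in WT sham, and none of the 11 was at 0 throughout a group. The 3 atrial markers summed to 182 to 557 CPM in KO MI, 123 to 244 in KO sham, 279 to 887 in WT MI and 376 to 1378 in WT sham, and all 3 were called lower in KO sham than in WT sham. The 7 erythroid markers summed to 1124 to 1858 CPM in KO MI, 990 to 1406 in KO sham, 1710 to 2114 in WT MI and 2964 to 4728 in WT sham, all 7 lower in KO sham than in WT sham. The 7 smooth muscle and pericyte markers ran higher in KO sham, at 776 to 821 CPM, against 527 to 644 in WT sham, with 4 called higher and 1 lower. Macrophage markers, 7 in all, summed to 168 to 374 CPM in KO MI, 119 to 132 in KO sham, 132 to 216 in WT MI and 89.0 to 104 in WT sham. Of these, 5 were called higher in KO MI than in KO sham, 2 in WT MI than in WT sham and 1 in KO sham than in WT sham. In KO sham against WT sham 1 of 9 fibroblast markers was higher and 1 lower (median log2 fold change -0.08), and 1 of 7 endothelial markers was higher and none lower (0.11). Over all tested genes 7.6% were called higher and 7.74% lower. None of 5 tested Schwann cell markers was called, but their median was -0.59 (1 positive, 4 negative). In KO MI against KO sham the Schwann cell median was 0.47. The summed level of these markers was low, at 13.9 to 17.6 CPM in KO sham and 16.1 to 62.9 in WT sham. The 8 ventricular cardiomyocyte markers check the tissue label. They gave sums of 75700 to 78807 CPM in KO sham, all below the WT sham sums of 82210 to 95023 CPM. In KO sham against WT sham 6 of the 8 had a negative log2 fold change and 2 a positive one (median -0.18), and none was called. Of all libraries, KO MI replicate 4 had the lowest sum (53745 CPM), and the next lowest was 74809 CPM in KO MI replicate 2. KO MI replicate 4 also had the lowest sum of fibroblast markers (5689 CPM) and the highest of macrophage markers (374 CPM) of all 16 libraries. Without it 7 of the 10 genes were called in KO MI against KO sham, as with it. In whole ventricle, fewer cells of a type and less RNA per cell cannot be told apart.

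**Figure D5:**
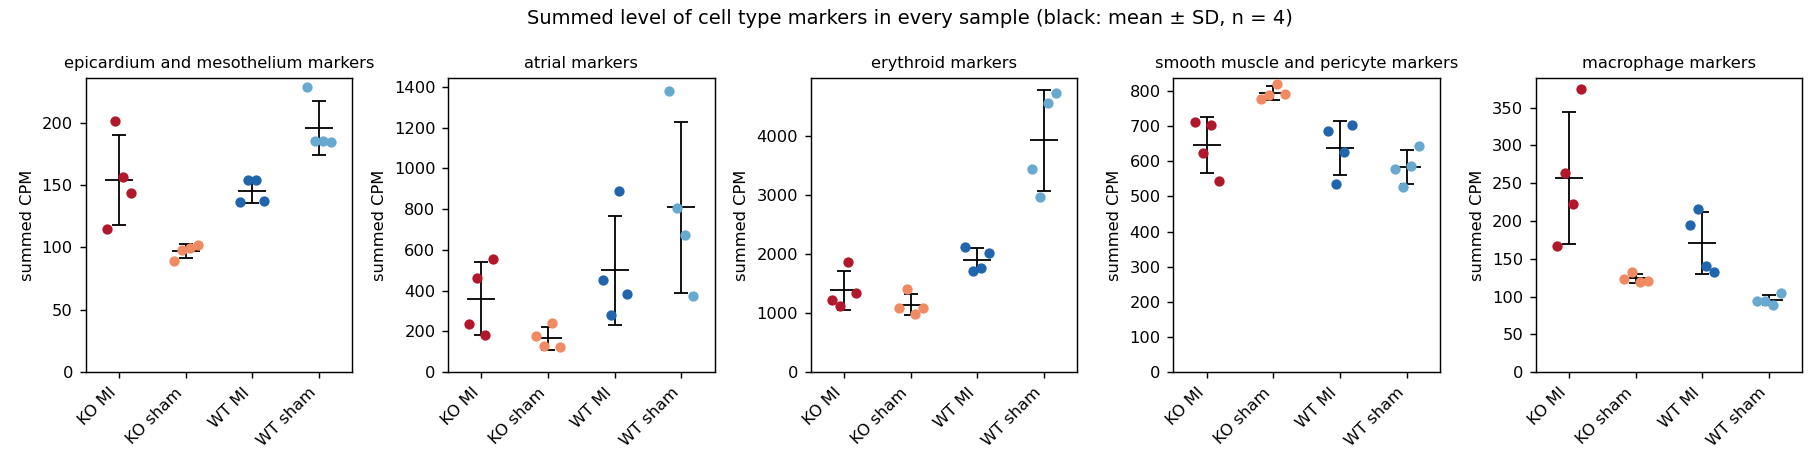
Summed CPM (vertical axes from 0) of 5 lists of cell type markers in each of the 16 samples, by group; black bars give the mean ± SD of 4 samples. The epicardial sum was lowest in KO sham (89.0 to 102 CPM) and highest in WT sham (184 to 228 CPM), as were the means of 6 of the 10 genes. The share of all tested genes with this order was not counted.

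Adding the mean log2 level of the 11 epicardial markers to the model as a covariate left none of the 10 genes called in any comparison, and 1 of 13412 genes called in KO sham against WT sham. Some differences lost their call with a log2 fold change as large as before and a wider error: in KO sham against WT sham Marcksl1 stood at -0.91 ± 0.20, Ptn at -0.48 ± 0.24, Igf2bp1 at -2.06 ± 0.96 and Sox4 at 0.84 ± 0.47, and in KO MI against KO sham Marcksl1 stood at 0.68 ± 0.16, Ptn at 0.81 ± 0.19 and Igf2bp1 at 1.77 ± 0.83. Others shrank: in KO sham against WT sham Gpc3 stood at -0.30, Stmn1 at -0.18, Igf2bp3 at -0.35, Mdk at -0.21 and Nes at -0.069, and in KO MI against KO sham Gpc3 stood at 0.085, Stmn1 at 0.40, Igf2bp3 at 0.32 and Mdk at 0.14. This index was 1.42 to 1.75 in the KO sham libraries and 2.23 to 3.86 in all others, so that it and the KO sham group cannot be told apart. With the mean log2 level of the 3 atrial markers as a covariate, 3 of the 10 genes were called in KO sham against WT sham (Gpc3, Stmn1 and Marcksl1) and 4 in KO MI against KO sham (Ptn, Gpc3, Stmn1 and Marcksl1). Of the calls lost with it, Igf2bp1 kept values of -1.91 and 1.68 in these comparisons, and in KO sham against WT sham Ptn stood at -0.39, Sox4 at 0.91, Igf2bp3 at -0.51, Mdk at -0.36 and Nes at -0.17. Igf2bp3 stood at 0.51 and Mdk at 0.28 in KO MI against KO sham. Both covariates were chosen after seeing the data.

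Among themselves the genes followed each other mainly through the groups. Across the 16 samples Mdk and Gpc3 had a Pearson correlation of 0.84 in log2 CPM and Igf2bp3 and Nes one of 0.82, and after the group means were subtracted these were 0.65 and 0.65. Stmn1 and Marcksl1 correlated at 0.79 over all samples and at 0.34 within groups. Gpc3 and Sox4 stood at -0.31 over all samples and at 0.64 within groups. Genes of 1 library share its depth and cell makeup, and these values are given as descriptions.

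Outside the 10 genes, those most like the mean standardised level of the 10 over the 16 samples were Rxfp1 (r = 0.92), Actb (0.92), Myh8 (0.91), Tagln (0.91) and Ywhah (0.90), followed by Plekhn1, Cchcr1, Cideb, Bace2 and Pdk3. Within groups the first 4 had r values of 0.47 to 0.55, here against the mean of the 10 genes' deviations in log2 CPM, which were not standardised. For single genes, the closest to Stmn1 were the mitotic genes Cenpm (0.95), Cks2 (0.95) and Tpx2 (0.94), and the closest to Marcksl1 was Serpinh1 (0.97), a collagen chaperone, followed by Sdsl (0.94) and Pxdc1 (0.93). Gpc3 was nearest to Aldh7a1 (0.95), Ptpn13 (0.94) and Hnrnpm (0.93), and Sox4 to Myh14 (0.91), Syde2 (0.90) and Msl1 (0.87). Igf2bp1 was nearest to Inhbb (0.89), Ttc39a and Tceal7, Igf2bp2 to Nek2 (0.87), Cdk5rap2 and Fstl4, and Igf2bp3 to Bmp7 (0.89), Bex1 and Clspn. Mdk was nearest to Rcn3 (0.89), Tomm6 and Rarres2, Ptn to Krt8 (0.90), Nrarp and Tert, and Nes to Dtnb (0.85), Loxl2 and Nt5c2. Krt8 is itself among the epicardial markers above.

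Promoter sequence was available in RefSeq (build GRCm38.p6) for 7 of the 10 genes, and not for Igf2bp1, Mdk and Stmn1. Of those 7, the promoters of Igf2bp3, Gpc3 and Marcksl1 are shown. These 3 genes were called in KO sham against WT sham, in KO MI against KO sham and in the interaction, which all contain the KO sham libraries. Stmn1 was called in all 3 as well but had no promoter sequence. Each is the 300 bases around the annotated start, at chr6:49214905-49215204 (minus strand), chrX:52613925-52614224 (minus strand) and chr4:129513331-129513630 (plus strand). Capitals mark matches on either strand to the GC box GGGCGG, the CCAAT box CCAAT or the TATA motif TATAAA.
Igf2bp3 promoter: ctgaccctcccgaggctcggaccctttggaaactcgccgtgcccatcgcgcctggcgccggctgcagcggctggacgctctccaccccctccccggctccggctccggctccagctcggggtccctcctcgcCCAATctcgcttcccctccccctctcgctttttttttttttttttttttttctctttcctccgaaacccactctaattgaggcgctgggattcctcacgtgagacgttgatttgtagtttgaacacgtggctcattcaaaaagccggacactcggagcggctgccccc
Gpc3 promoter: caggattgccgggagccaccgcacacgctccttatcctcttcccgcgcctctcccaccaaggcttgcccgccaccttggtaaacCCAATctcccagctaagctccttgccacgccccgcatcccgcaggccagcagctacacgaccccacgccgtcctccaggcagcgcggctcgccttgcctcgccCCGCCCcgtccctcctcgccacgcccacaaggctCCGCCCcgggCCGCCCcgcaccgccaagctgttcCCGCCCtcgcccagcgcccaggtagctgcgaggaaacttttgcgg
Marcksl1 promoter: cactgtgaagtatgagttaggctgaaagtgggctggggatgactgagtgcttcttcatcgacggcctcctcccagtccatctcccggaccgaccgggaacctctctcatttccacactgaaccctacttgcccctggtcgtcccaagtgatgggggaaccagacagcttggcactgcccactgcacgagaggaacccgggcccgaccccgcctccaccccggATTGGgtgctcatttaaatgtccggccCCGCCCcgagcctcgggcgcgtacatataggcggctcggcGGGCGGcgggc
All 3 held 1 CCAAT match, which 37.4% of 32851 promoters of the same length held. Gpc3 held 4 GC box matches and Marcksl1 2, while Igf2bp3 held none, and 35.7% of promoters held at least 1. None of the 3 held a TATA match, which 13.6% of promoters did. Their GC content was 60.3%, 70.7% and 63.7% for Igf2bp3, Gpc3 and Marcksl1, against a median of 52.7% over all promoters.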

How the data were processed

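Per the labels' protocols, polyadenylated RNA of the whole ventricles was made into NEBNext Ultra libraries and sequenced on an Illumina HiSeq instrument. Per the submitters' processing notes, HISAT2 2.2.1, HTSeq 0.13.5, bcl2fastq 2.17, cutadapt 3.4, DESeq2 and FastQC were used, with build GRCm39. The strand setting, annotation release and order of steps are not given in the sources used here, so genes that overlap on opposite strands may share reads. The authors deposited HTSeq counts, not normalized: whole reads per Ensembl gene and sample. Reads in no feature (23.7 to 28.2% of the reads in the table) and ambiguous reads (1.56 to 2.08%) stayed out of library totals. Symbols, available for 22362 genes, and exon lengths came from GENCODE annotation of the older build GRCm38. A library's intervals and floors cover counting error only.

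The counts were fitted in R 4.3.3 with edgeR 4.0.16 (TMM, filterByExpr with a minimum count of 10, robust quasi-likelihood fit, 1 mean per group over all 16 samples, 12 residual degrees of freedom). The 5 comparisons are contrasts of this fit, tested on both sides with Benjamini-Hochberg adjustment over 13412 genes. On data simulated for KO MI against KO sham (13294 genes), the fit called 96 of 100 genes given a log2 change of 1, 100 of 100 given a change of 2 and 5 of 13094 unchanged genes. The simulation gave every gene the same fixed spread beyond counting error and no shared variation in cell makeup. Its smallest change, 1, was larger than most called changes of the 10 genes. It therefore checks the code and does not give the power or error rate in these data. SEs follow from the F statistic. Correlations used log2 CPM with a prior count of 2. The members and the gene lists were chosen with earlier results of these data known. Named were all 10 genes, up to 4 genes of a described list with the smallest p, the 3 genes most like each of the 10 and the 10 most like their mean; Igf2 and Tuba1b are named outside this rule, after their values were seen.

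Alternatives were DESeq2 1.42.0, limma 3.58.1 voom with sample weights, RLE and upper quartile scaling, other count filters, leaving out haemoglobin and mitochondrial genes, a replicate block, the 8 samples compared alone, each library left out, a Y-linked index, a fit without 3 libraries very low in Y-linked reads, and a correction for length and GC content (mgcv 1.9.3). The epicardial and atrial covariates were added after seeing the data. Exact permutation tests planned for genes under the count filter were not needed, since all 10 passed.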

Additional observations from a re-analysis of the deposited data

Results flagged for a closer look

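Gpc3 in WT sham replicate 1 stood at 111 CPM, far from the other 3 WT sham samples, which lay between 80.2 and 85.4 CPM. Of the 40 gene and group combinations examined in this way, 1 was set apart, where chance sets apart about 1 in 20.

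For 4 genes the response to infarction differed between KO and WT by the test of the interaction (log2 fold change of KO MI against KO sham minus that of WT MI against WT sham): Igf2bp3 at 1.02, Gpc3 at 0.97, Stmn1 at 0.55 and Marcksl1 at 0.73. For all 4 the KO sham samples, which the interaction contains, were the lowest group. Among the cell type markers, 9 of 11 epicardial and 5 of 7 erythroid markers also had a positive interaction called, and their part in the 4 results was not tested apart from the covariate fits.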

How the results depend on the processing

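The calls for Stmn1 and Marcksl1 in KO MI against KO sham and in KO sham against WT sham held under every alternative but the epicardial covariate. So did those for Ptn in KO MI against KO sham, Gpc3 in KO sham against WT sham and Marcksl1 in the interaction. With that covariate Marcksl1 (0.68 and -0.91, and 0.95 in the interaction) and Ptn (0.81) kept their size, while Stmn1 (0.40 and -0.18) and Gpc3 (-0.30) shrank. The labels do not say whether the replicate numbers pair the samples. Same-numbered samples of different groups correlated at -0.10 to 0.48 in their deviations (median 0.01, 4 of 24 over 0.1). Differently numbered samples correlated at -0.33 to 0.21 (median -0.01, 8 of 72 over 0.1), so these values do not settle it. With a replicate block, 2413, 297, 2202, 3 and 350 genes were called in KO MI against KO sham, WT MI against WT sham, KO sham against WT sham, KO MI against WT MI and the interaction, against 2220, 302, 2057, 2 and 368 without it, and it changed no call of the 10 genes.

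In the same order of comparisons, limma voom called 4796, 495 and 3901 genes in the first 3 and 1524 in the interaction, with 1 of the 10 genes in WT MI against WT sham and 8 in the interaction. DESeq2 called 511 genes in WT MI against WT sham, 10 in KO MI against WT MI and 628 in the interaction. Without the 3 libraries low in Y-linked reads 1291, 166, 1237, 1 and 217 genes were called, with 4 of the 10 genes in KO MI against KO sham and 2 in the interaction. The interaction calls lost were those of Igf2bp3 (1.03, against 1.02 with all libraries) and Stmn1 (0.61, against 0.55). The length and GC correction called 459 genes in WT MI against WT sham. The 8 samples compared alone gave 185 genes in WT MI against WT sham, 3211 in KO sham against WT sham and 1 in KO MI against WT MI, as did leaving out haemoglobin and mitochondrial genes for the last (1). With the atrial covariate 197, 842 and 112 genes were called in WT MI against WT sham, KO sham against WT sham and the interaction, with 4, 3 and 1 of the 10 genes in KO MI against KO sham, KO sham against WT sham and the interaction. With the epicardial covariate 1, 108, 1, 1 and 0 genes were called and 0 of the 10 genes in each comparison. The interaction was then 0.95 for Marcksl1, against 0.53 for Igf2bp3, 0.31 for Gpc3 and 0.19 for Stmn1. The cause of these shifts was not tested.

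Leaving out 1 library at a time gave 1230 to 2931, 86 to 565, 1298 to 2881, 1 to 4 and 178 to 817 genes, and 3 to 7, 0 to 1, 7 to 9, 0 to 0 and 2 to 5 of the 10 genes. The lowest counts of the 10 genes came without KO MI replicate 2 (3 in KO MI against KO sham), and the highest counts of all genes in the interaction without WT MI replicate 2 (817).

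Signs turned only where the value was near 0 or Igf2bp2 was concerned. In KO MI against WT MI these were Igf2bp1 (-0.059) and Sox4 (0.031) with limma voom, Marcksl1 without the 3 libraries low in Y-linked reads (-0.040) and with the atrial covariate (-0.048), and Nes with the epicardial covariate (-0.026). With the epicardial covariate Igf2bp2 was at -0.18 in KO MI against KO sham, 0.58 in KO sham against WT sham and -0.54 in the interaction, and Mdk at 0.0038 in WT MI against WT sham. With the atrial covariate Igf2bp2 was at 0.14 in KO sham against WT sham. In the fits that left out 1 library, values of KO MI against WT MI that turned sign in some fits ranged from -0.10 to 0.32 for Igf2bp1, -0.056 to 0.26 for Igf2bp2, -0.048 to 0.067 for Marcksl1, -0.13 to 0.021 for Mdk, -0.018 to 0.085 for Nes and -0.26 to 0.12 for Sox4, and Igf2bp2 ranged from -0.18 to 0.0033 in KO sham against WT sham. Igf2bp1 gave no value under the filter at a mean of 50 counts or with the 8 samples of either KO sham comparison alone, where it failed the count filter. Depth limits Igf2bp1 most, since no library held more than 16 of its reads.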
